A study of Bos taurus with 57 samples.

Results

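The 200 genes described here were scarcely to moderately counted in the arcuate nucleus of the hypothalamus of Holstein-Friesian bull calves and were counted far less in the anterior pituitary and the testes of the same calves. They were chosen by measured values. For each of 24616 genes, counts were turned into CPM, the count scaled to a common library total of 1e6, and averaged within each tissue over the libraries from the high plane of nutrition. Among the 5548 genes with an arcuate mean from 2 to below 20 CPM, the 200 with the largest ratio of arcuate mean to the larger of the pituitary and testes means were kept, with 0.5 CPM added to each mean. These genes are called members here and are numbered 1 to 200 by falling ratio. The files give Ensembl bovine gene IDs that were not matched to symbols here, so members are given by number and no role is stated for them. CPM is not divided by gene length, so CPM values are compared between libraries and not between genes.

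The arcuate nucleus lies at the base of the third ventricle. Its neurons and glia read metabolic hormones and pass nutritional signals on to the neurons that release gonadotropin-releasing hormone. The anterior pituitary answers that hormone with gonadotropins, which act on the testes, so the sampled tissues form the hypothalamic-pituitary-testicular axis.

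The series held 57 RNA-seq libraries of male calves. Calves on the high plane of nutrition gave 10 arcuate, 9 pituitary and 10 testes libraries, and calves on the low plane gave 10, 10 and 8. The sample labels give growth of 1.08 kg/day for the high plane and 0.5 kg/day for the low plane, while the design text gives 1.2 kg/day as the aim for the high plane. Calves were slaughtered at 126 days of age, and per the methods each calf gave 1 sample of each tissue, so libraries of a group come from separate animals. All groups share breed, sex and age. Arcuate tissue was cut by hand from both sides of the floor of the third ventricle, and in such bulk tissue fewer cells of a type and less RNA per cell cannot be told apart.

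Some libraries stood apart in all tissues. Each library was given a score, the average on the log2 CPM scale over 200 genes. These genes were the ones that moved most along the leading axis of difference between libraries in the 2 tissues that the library did not come from, and 0 of them were members in any tissue. In the arcuate nucleus, low plane libraries C6 and C33 scored -1.41 and -0.69, against 3.41 to 5.11 in the other 18. In the pituitary 3 high plane and 2 low plane libraries scored below 2, and in the testes 1 high plane and 5 low plane libraries did. Library totals in the arcuate nucleus ranged from 898979 (C22, high plane) to 32009433 counts. Tissue labels could not be checked against marker genes because the genes are unnamed. Across genes, the median correlation of C6 was 0.695 with the other arcuate libraries, 0.597 with pituitary and 0.530 with testes libraries, and that of C33 was 0.819, 0.674 and 0.586. The other 18 arcuate libraries had a median correlation of 0.942 or more with arcuate libraries.

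As chosen, the ratios ran from 31.2 for member 1 to 22.2 for member 10, 8.82 for member 100 and 5.98 for member 200. The median ratio over the whole band was 0.696, and a ratio in this band cannot exceed 41. Just inside the limit, the last 5 members had ratios of 6.001, 5.998, 5.994, 5.981 and 5.977. The 5 genes just outside it had ratios of 5.959, 5.958, 5.955, 5.935 and 5.931. In the high plane libraries, the members' mean level ran from 3.05 CPM to just below 20 CPM in the arcuate nucleus, with a median of 10.4 CPM. The same means ran from 0 to 2.60 CPM in the pituitary (median 0.211) and from 0.00384 to 2.86 CPM in the testes (median 0.317). These values made the choice and carry no test.

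The low plane libraries took no part in the choice. In them the members' mean level ran from 2.90 to 44.2 CPM in the arcuate nucleus, with a median of 9.56 CPM. The medians were 0.222 CPM in the pituitary and 0.377 CPM in the testes. All 200 members had a low plane ratio of at least 2, from 2.79 for member 170 to 50.2 for member 36, with a median of 8.24. For 132 of the 200 the low plane ratio was below the ratio that had put the gene on the list.

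Summed over the members, high plane arcuate libraries held 1764 CPM at the lowest, 2153 CPM at the median and 2525 CPM at the highest. Low plane arcuate libraries held 1172, 2257 and 2539 CPM. The lowest low plane values belonged to C6 and C33 (1663 CPM), and the 2 diets overlapped over most of their range. Pituitary libraries held 48.1 to 142 CPM on the high plane and 48.4 to 147 CPM on the low plane, and testes libraries 62.7 to 132 CPM and 98.1 to 147 CPM. No pituitary or testes library came near the lowest arcuate library.

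**Figure D1:**
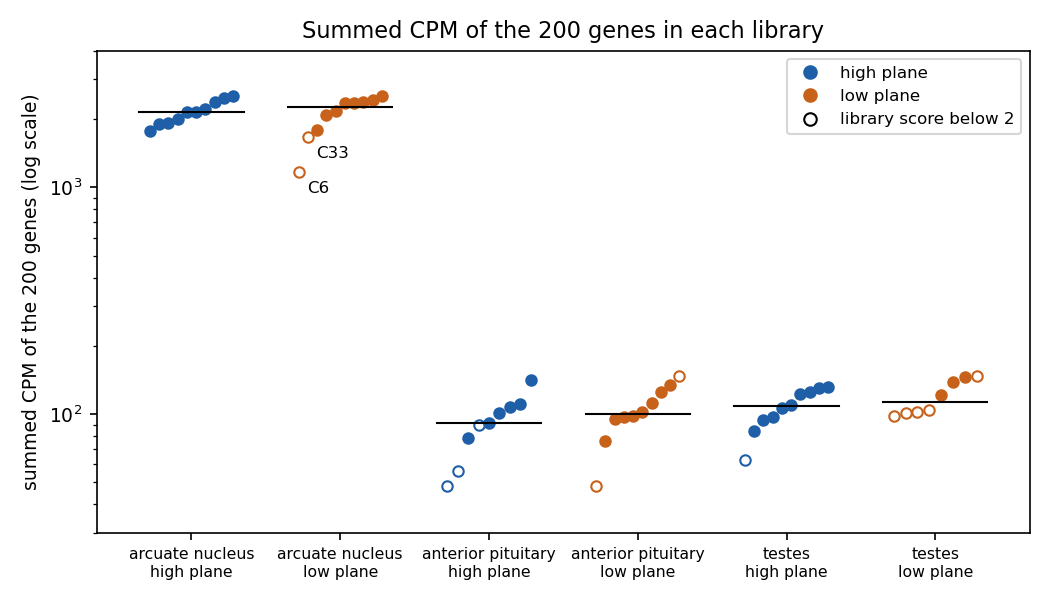
Summed CPM of the 200 genes in each of the 57 libraries on a log axis, by tissue and plane of nutrition, with a bar at each group's median and open circles for libraries with a library score below 2. All 20 arcuate libraries lie at or above 1172 CPM and all others at or below 147 CPM, and C6 and C33 are the lowest arcuate libraries.

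The number of members without a single count followed the tissue as well. It was 0 to 5 per high plane arcuate library with a median of 0.5, and 0 to 28 per low plane arcuate library with a median of 1. In the pituitary it was 35 to 111 on the high plane and 34 to 81 on the low plane. In the testes it was 19 to 59 and 14 to 72. Every member had counts in at least 1 arcuate library of each diet. Of the 200, 6 had 0 counts in all 10 low plane pituitary libraries, where 0 counts over the group allow up to 0.0173 CPM (3 counts, counting error only), and 1 had 0 counts in all 8 low plane testes libraries.

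Outside the arcuate nucleus, the testes mean was above the pituitary mean for 124 members in the high plane libraries and for 122 in the low plane libraries. The order was the same on both diets for 164 members, with 105 higher in the testes and 59 higher in the pituitary. In the low plane libraries 25 members stayed below 0.1 CPM in both tissues, and 58 exceeded 1 CPM in at least 1 of them.

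Whether the members were higher in the arcuate nucleus was tested in the low plane libraries with edgeR's quasi-likelihood test over all genes. After the filter on low counts 195 members were tested, and 195 were called higher than in both other tissues at an adjusted p below 0.05, where 17.5% of all 15808 genes tested were. The 5 members that the filter removed were 31, 142, 151, 163 and 188. The tested members passed the filter mainly through their arcuate counts, so this count is a description. Without the filter 200 of the 200 members were called, against 12.8% of 22439 genes. Without C6 and C33, 193 of 193 tested members were called, as were 2570 of all 15772 genes tested.

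The log2 difference from arcuate nucleus to pituitary had a median of 5.11 over the 195 tested members and ran from 1.58 (member 183) to 9.87 (member 3) among those with counts in the pituitary. From arcuate nucleus to testes the median was 4.65, and the values ran from 1.89 (member 170) to 8.41 (member 191). With the genes at 0 set at their bound the medians were 5.11 and 4.65. Member 21, at 0 in the low plane pituitary, was at least 555-fold higher in the arcuate nucleus, and member 7, at 0 in the low plane testes, was at least 343-fold higher. For 107 of the 195 members the fitted difference to the pituitary was the larger.

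**Figure D2:**
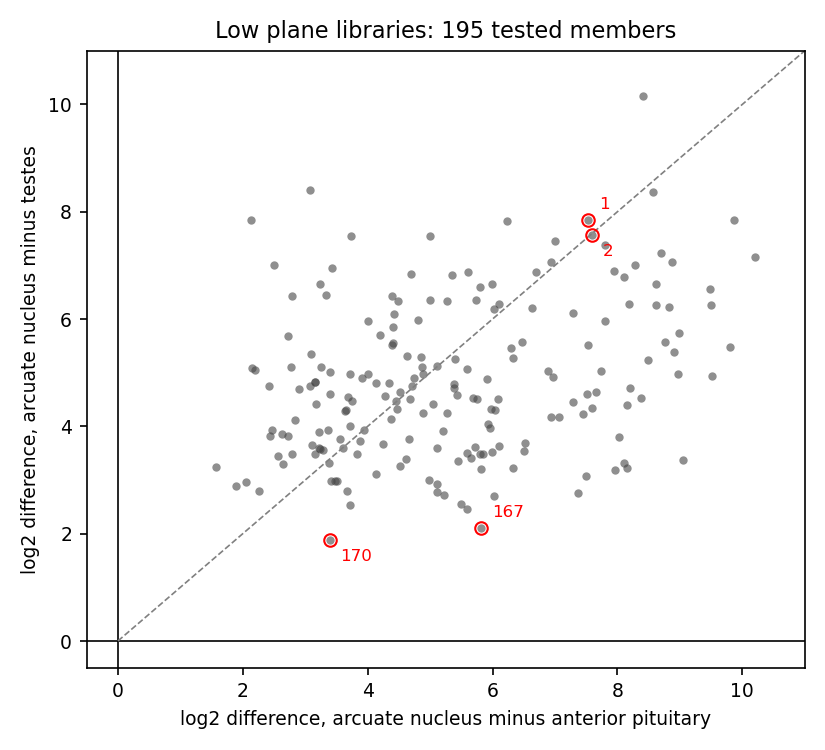
Fitted log2 differences of the 195 tested members in the low plane libraries, arcuate nucleus minus anterior pituitary on the horizontal axis and minus testes on the vertical axis, with members 1, 2, 167 and 170 ringed and a dashed line where both are equal. Every point lies above 0 on both axes, and member 170 lies lowest on the vertical axis at 1.89.

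Member 1 (ENSBTAG00000000845) had 12.8 CPM in the lowest low plane arcuate library, 22.1 at the median and 41.2 in the highest. In low plane pituitary libraries it had 0, 0.122 and 0.242 CPM, and in low plane testes libraries 0, 0.0907 and 0.326 CPM. The arcuate values lay apart from all others, and C6 (19.8 CPM) and C33 (41.2 CPM) were within or above the range of the rest. Its log2 difference was 7.54 (SE 0.50, edgeR adjusted p = 4.5e-13) to the pituitary and 7.85 (SE 0.57, adjusted p = 1.5e-12) to the testes. The latter was 8.46 without testes library B2, and 9.82 without libraries of low score, where member 1 had 1 count in the 3 testes libraries left. The ratio of arcuate mean to pooled testes CPM there was 1221, with an exact Poisson 95% interval on that count from 219 to 48218.

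Member 2 (ENSBTAG00000021667) had 5.80, 14.1 and 20.2 CPM at the lowest, median and highest in the low plane arcuate libraries. It reached 0.1998 CPM in the low plane pituitary and 0.196 CPM in the low plane testes at most, so the tissues did not overlap. Its log2 difference was 7.60 (SE 0.61, edgeR adjusted p = 2.1e-11) to the pituitary and 7.57 (SE 0.68, adjusted p = 1.0e-10) to the testes. Members 3 to 10 had low plane arcuate medians from 8.75 to 27.4 CPM and low plane ratios from 18.3 to 31.7. In C6 member 10 was at 0.577 CPM and member 3 at 0.231 CPM, while member 9 had 43.1 CPM in C6 and 53.8 CPM in C33.

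Library by library, 108 of the 200 members had every low plane arcuate library above every low plane pituitary and testes library. Among the 195 tested members the count was 107, where 5.1% of all genes tested were so separated. With C6 and C33 left out, the count was 179 of 200, or 177 of the tested members, against 11.7% of all genes tested. For 71 members the only arcuate libraries that overlapped the other tissues were C6 or C33.

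When the choosing rule was run on the low plane libraries alone, 148 of its 200 genes were members, which is 74% of either list. Of the 52 members not chosen again, 12 had passed the upper edge of the band and 0 had fallen below the lower edge. The other 40 had a ratio below 5.72, the value at rank 200 of the low plane list, and 30 of them ranked before place 300. The 12 above the band included members 1, 9, 36 and 142.

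Within C6 and C33 the members did not fall evenly. Against the median of the other 8 low plane libraries, C6 held at most 10% for 76 members and C33 for 36, and 33 members were at or below 10% in both. That was 16.5% of the members, against 12.2% of the other 5348 genes of the band and 13.5% of the 200 arcuate-enriched genes with 20 CPM or more. Arcuate-enriched here means against the pituitary and the testes only, since no other brain region was sampled. By contrast 48 members lay between 50% and 2 times the median in both libraries, and 34 were above the median in both. C6 was lower than C33, relative to that median, for 156 members. It was the lowest low plane arcuate library for 121 of the 200. The counts of 48, 34, 156 and 121 are not set against other genes here. With 0.1 CPM added to both values, C6 held at most 25% of that median for 52% of the members. The shares were 38.5% for the other genes of the band and 46.5% for the arcuate-enriched genes with 20 CPM or more. The part of the library score in these values was not tested.

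**Figure D3:**
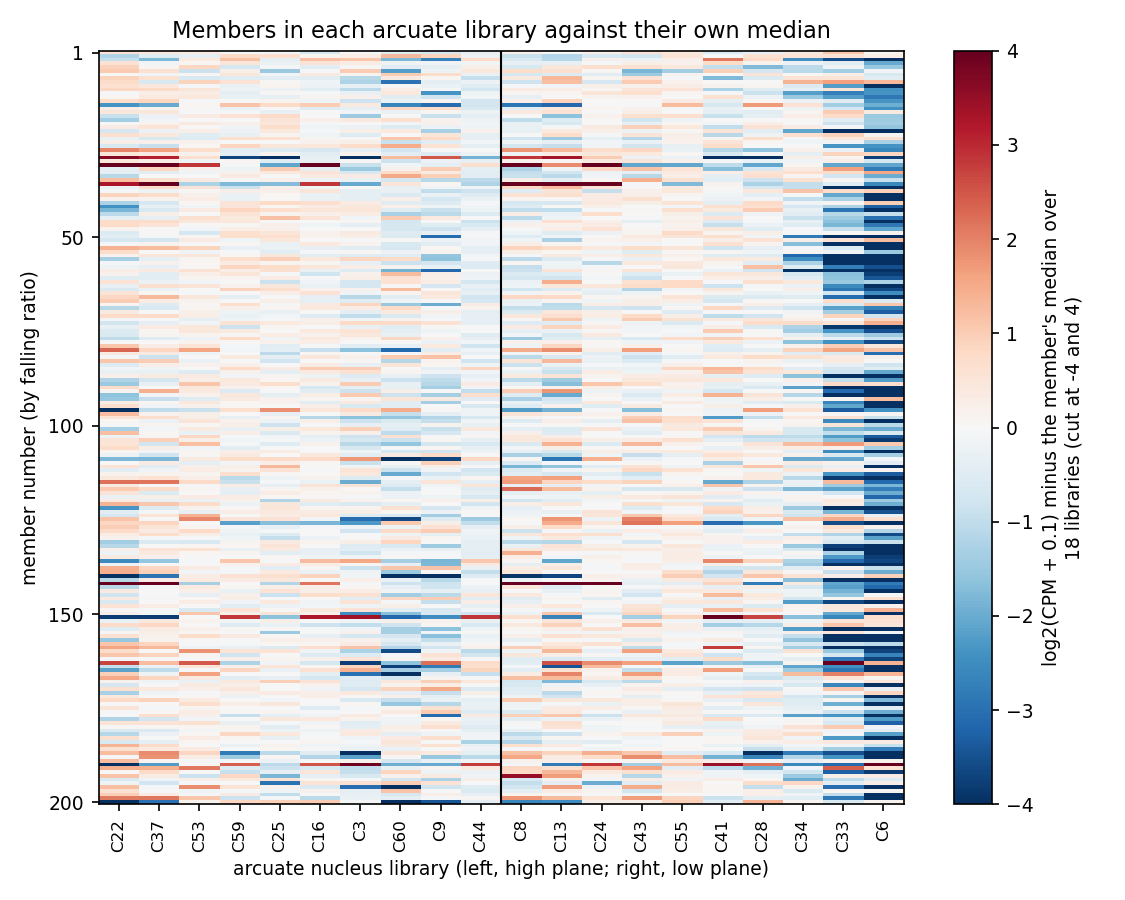
Each member (1 row each, member 1 at the top) in each of the 20 arcuate libraries, as log2(CPM + 0.1) minus the member's median over the 18 libraries without C6 and C33, cut at 4 either way, with libraries ordered by summed CPM within each diet. Blue is below and red above the median. C6 and C33, at the right edge, are blue for most members and pale or red for others, and single rows such as those of members 36 and 142 run from dark blue or pale to dark red.

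Apart from C6 and C33, the members spread widely between arcuate libraries. The ratio of the highest to the lowest of the 18 libraries, with 0.1 CPM added, had a median of 4.39 over the members, 2.79 over the other genes of the band and 3.13 over the more abundant arcuate-enriched genes. It exceeded 20 for 25 members (12.5%), against 5.42% and 4% of those 2 sets. It was under 3 for 46 members (23%), against 54.97% and 48.5%. These shares are descriptions, since the high plane libraries among them also chose the members. C22, with 898979 counts, was the highest high plane arcuate library for 49 members and the lowest for 38. C60, with 17313835 counts, was also the lowest for 38. The ratio was not computed without C22, and the part of its depth in these ratios was not tested.

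The 5 members with the largest spread over the 10 low plane arcuate libraries were 142, 36, 59, 29 and 31, with SDs of log2 CPM from 3.81 to 3.03. Member 142 had 0.179, 0.584 and 27.8 CPM at the lowest, median and highest in high plane arcuate libraries and 0, 0.621 and 162 CPM in low plane ones. Member 36 had 0.386, 1.36 and 64.6 CPM, and 0.231, 1.56 and 289.99 CPM. The same 6 libraries led for both members in the same order, C8, C24, C37, C13, C22 and C16, of which 3 came from each diet. The means of both thus rested on a few libraries, and their median low plane arcuate levels of 0.621 and 1.56 CPM stood beside medians of 0.116 and 0.431 CPM in the low plane testes.

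Member 29 had 0.0643, 5.13 and 55.6 CPM on the high plane and 0, 4.07 and 45.0 CPM on the low plane. Member 31 had 0, 0.429 and 33.2 CPM, and 0, 0.0541 and 25.5 CPM. Member 59 differed in that most libraries were high, with 1.73, 17.998 and 25.2 CPM on the high plane and 0, 11.5 and 23.6 CPM on the low plane. Its low values belonged to C6 and C33, both at 0 counts, and to C34 and C9.

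**Figure D4:**
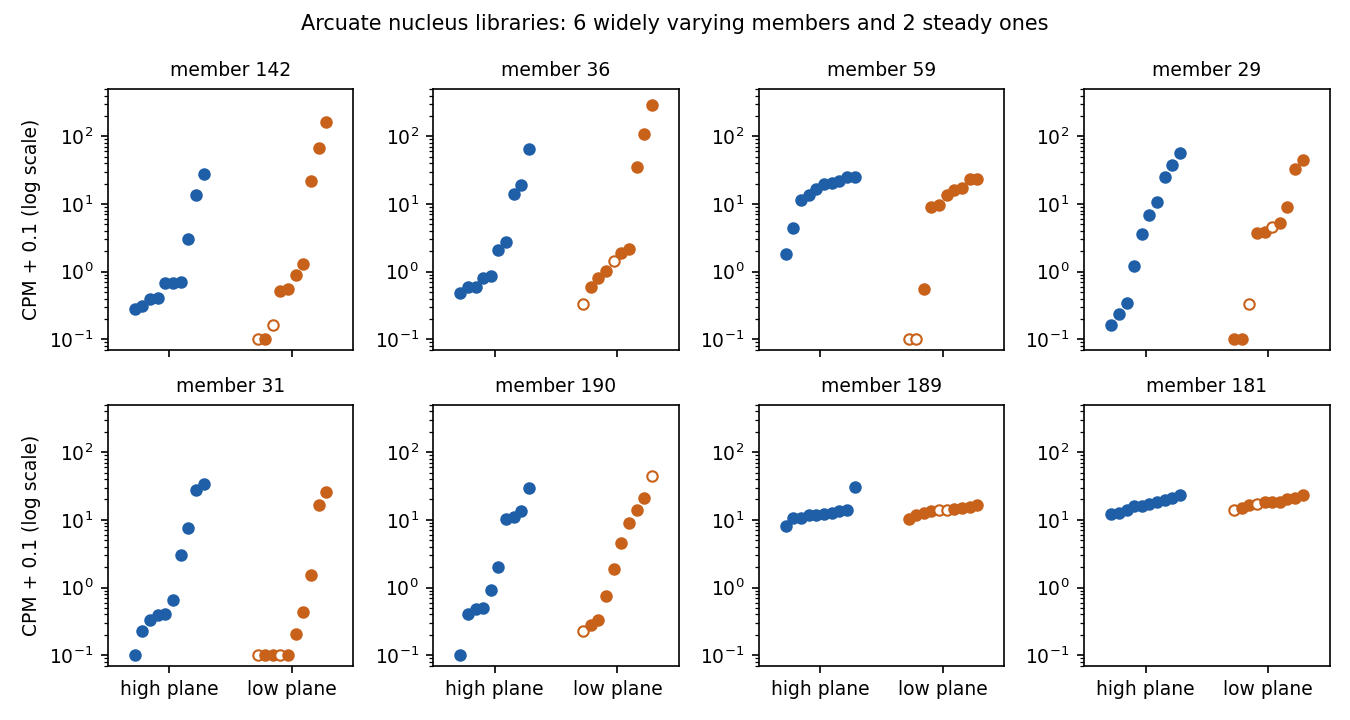
CPM + 0.1 on a log axis in each arcuate library, by plane of nutrition, for the 5 members with the largest spread over low plane libraries, member 190 and 2 of the steadiest members, with C6 and C33 as open circles. Members 142, 36, 29, 31 and 190 run over 100-fold or more within each diet, while members 189 and 181 stay between 7.97 and 30.03 CPM.

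The libraries at the ends recurred, a pattern noticed after the values were seen. The 6 highest libraries for member 29 (C22, C13, C37, C8, C9 and C60, 4 of them high plane) were also the 6 lowest of the 18 for members 15, 140 and 200. At least 5 of these 6 were among the 6 lowest for members 3, 109, 136, 151 and 190 as well. Over all 200 members, at least 5 of the 6 were among the 6 lowest for 21 and among the 6 highest for 10. Together these were 15.5% of the members, against 4.92% of the other genes of the band. The share over the more abundant arcuate-enriched genes was not computed, so the pattern is not shown to be particular to the members. The 6 libraries were taken from the values of member 29, which is itself among the 10. The high plane libraries also chose the members, so these shares are descriptions and carry no test. Member 190, with 0, 1.37 and 29.004 CPM on the high plane and 0.127, 3.11 and 44.2 CPM on the low plane, and member 151, with 0, 0.830 and 14.1 CPM and 0.121, 1.69 and 26.3 CPM, shared C3, C41, C16, C44 and C59 among their 6 highest. C22 also had the smallest total, and the part of its depth in its own high or low values was not tested.

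At the steady end were members 189, 181, 155, 97 and 175, with SDs of log2 CPM from 0.20 to 0.31 over the 10 low plane arcuate libraries. Member 189 had 10.1, 13.9 and 16.4 CPM in low plane arcuate libraries, and member 181 had 14.1, 18.3 and 22.9 CPM. C6 and C33 were no exception for either, at 13.8 and 13.9 CPM for member 189 and at 14.1 and 17.1 CPM for member 181. These members also had measurable levels elsewhere, with low plane medians of 1.91 CPM in the pituitary and 0.867 CPM in the testes for member 189 and of 2.44 and 1.61 CPM for member 181.

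The effect of plane of nutrition was tested within each tissue, as low minus high plane. The high plane libraries also chose the members, so the counts below are descriptions of the list. In the arcuate nucleus 198 members were tested with edgeR's quasi-likelihood test and 0 were called, as were 0 of all 14757 genes tested (0%). At an unadjusted p below 0.05 there were 16 members, 5 higher and 11 lower on the low plane, and 1464 of all genes. DESeq2 called 0 members and 1 of all genes, and limma voom called 0 of both.

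The members leaned to lower values on the low plane in the arcuate nucleus. This lean was smaller with the library score in the fit and without C6 and C33. Of the 198 tested members 129 had a lower fitted value on the low plane, with a median log2 difference of -0.16 against -0.01 over all genes. With the library score in the fit the median was -0.02 and 96 of 198 were higher. Without C6 and C33 it was -0.01 and 95 of 199 were higher. The high plane libraries also chose the members, and the part of that choice or of the 2 libraries in the lean was not tested.

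The smallest unadjusted p-values in the arcuate nucleus belonged to members 72, 105, 45, 26 and 20, each with an edgeR adjusted p of 0.477. Member 72 had 9.13, 11.3 and 13.9 CPM at the lowest, median and highest on the high plane and 10.3, 16.3 and 25.4 CPM on the low plane. The diets overlapped between 10.3 and 13.9 CPM, and the log2 difference was 0.63 (SE 0.18). Member 105 had 2.25, 4.67 and 15.9 CPM on the high plane and 4.56, 12.1 and 22.7 CPM on the low plane, with a log2 difference of 1.08 (SE 0.37). Members 45, 26 and 20 had log2 differences of -0.81, -0.89 and -0.38, and for all 3 C6 was the lowest low plane library, at 1.73, 2.19 and 6.69 CPM.

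In the anterior pituitary only 48 members had enough counts to be tested, and 0 were called, against 0.562% of 14411 genes. At an unadjusted p below 0.05 there were 4 members, 2 in each direction, and 1070 of all genes. DESeq2 called 1 member. With the 5 libraries of low library score left out, 3 of 58 tested members were called, close to the 5.72% of all 14563 genes. Of the 3, member 115 was higher on the low plane and members 81 and 194 were lower. Member 194 had 1.16, 2.37 and 4.47 CPM on the high plane and 0.327, 1.59 and 2.01 CPM on the low plane, and the diets overlapped. Its log2 difference was -0.84 (edgeR adjusted p = 0.294) over all libraries and -0.92 (adjusted p = 0.0213) without those of low score.

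In the testes 70 members were tested. Of these 5 were called, all higher on the low plane, against 6.9% of all 15310 genes called and 4.75% called higher on the low plane. Thus 5 of 70 is close to the share over all genes. Fitted values were higher on the low plane for 35 members and lower for 35.

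Member 167 (ENSBTAG00000014078) had 0.664, 1.18 and 2.20 CPM in high plane testes libraries at the lowest, median and highest, and 2.08, 3.01 and 5.12 CPM in low plane ones. The diets overlapped in a narrow range near 2 CPM. Its log2 difference was 1.23 (SE 0.24, edgeR adjusted p = 0.0180). Member 170 (ENSBTAG00000007302) had 0.376, 0.819 and 1.02 CPM on the high plane and 1.06, 1.77 and 2.15 CPM on the low plane. Every low plane library lay above every high plane library, and the log2 difference was 1.16 (SE 0.22, adjusted p = 0.0180). These are small levels in the testes, and both members were still lower there than in the arcuate nucleus of the same diet by 2.11 and 1.89 on the log2 scale.

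The other called members were 72, 51 and 34, with log2 differences of 1.12 (SE 0.23), 1.34 (SE 0.34) and 0.93 (SE 0.27) and edgeR adjusted p-values of 0.0206, 0.0315 and 0.0454. Member 72 had 0.334, 0.569 and 1.17 CPM on the high plane and 0.766, 1.45 and 1.94 CPM on the low plane. For each of the 3 the diets overlapped. Member 72 is the one whose unadjusted p was also smallest in the arcuate nucleus, where it was higher on the low plane too but did not pass the adjusted threshold.

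**Figure D5:**
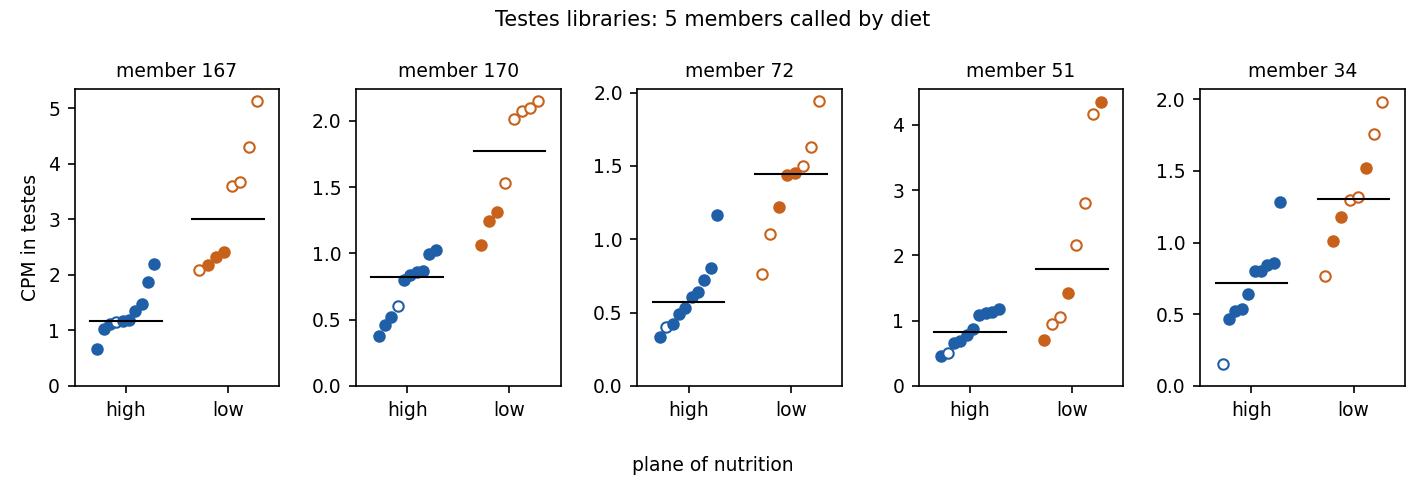
CPM in each testes library, by plane of nutrition, for the 5 members called by diet in the testes, with a bar at each group's median, vertical axes from 0 and open circles for libraries with a library score below 2. Low plane medians lie above high plane medians in all 5 panels, and 5 of the 8 low plane libraries are open circles.

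Library score moved with diet in the testes, since 5 of 8 low plane libraries and 1 of 10 high plane libraries were below 2. For member 167 the 4 highest values belonged to low plane libraries of low score. With the score in the fit members 72, 167 and 170 were still called, with log2 differences of 1.12, 0.96 and 0.85. Without the libraries of low score, which left 3 low plane libraries, 0 members were called, as were 0 of all 15935 genes tested (0%), and 17 of 98 tested members had an unadjusted p below 0.05, as did 2546 of all genes. The log2 differences were then 0.69, 0.61, 1.01, 1.15 and 0.62 for members 167, 170, 72, 51 and 34, each still higher on the low plane. With the log2 library total in the fit 0 members were called too.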

How the data were processed

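Single-end mRNA libraries from the tissues were sequenced by the authors, who per the labels used CASAVA 1.4, STAR, HTSeq and edgeR, with roles, genome build, annotation and strand setting not given in the sources used here. The deposited values are raw read counts per gene for each library, 1 file per library. From these counts CPM was computed on library totals. Members and lists were chosen with earlier results of these data known.

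Tests used edgeR 4.0.16 (filterByExpr, TMM factors, glmQLFit and glmQLFTest, Benjamini-Hochberg adjustment over all genes tested) in R 4.3.3, with limma 3.58.1 and DESeq2 1.42.0 as alternatives. The scripts were tested on simulated counts. Tissues were compared in the low plane libraries in 1 fit of 3 tissues, and diets within a tissue. A call needed an adjusted p below 0.05 and, for tissues, a positive difference to both. Library scores used a prior count of 2, and correlations used log2(CPM + 0.5) over genes with a mean above 1 CPM. No 2 libraries of a group agreed within counting noise (chi-square per degree of freedom of at least 2.76).

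Named members were the 10 of largest ratio, 5 on each side of the limit, the 5 with the smallest arcuate diet p, the 5 most and least variable over low plane arcuate libraries and those called by diet. Members named outside this rule (for example 15, 21, 81, 140, 151, 183, 190 and 194) were chosen after their values were seen. No ID was matched to a symbol, so the planned gene lists, tissue markers, protein and promoter sequences were not used here. In the testes, 1 high plane library (A48) bears a pituitary prefix in its title and was grouped by its tissue label. Its median correlation was 0.979 with testes libraries, 0.723 with pituitary and 0.634 with arcuate libraries. Counting error alone is covered by limits given for counts of 0.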

Additional observations from a re-analysis of the deposited data

Results flagged for a closer look

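Among 26 sets of values searched (summed CPM and members at 0 in each group, and the CPM of members 1, 2, 167, 170, 72, 51 and 34 by diet), 3 held a library far from the rest of its group. The nominal number by chance is about 1.3. The sets share libraries, so the 3 are not tested against that number. In the high plane arcuate nucleus C22, the shallowest library with 898979 counts, had 5 members at 0, and the next library had 1. In the low plane arcuate nucleus C6 had 28 members at 0 and the next, C33, had 8. In the high plane testes B42, with a library score of -0.70, had 59 members at 0 and the next had 30.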

How the results depend on the processing

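In the low plane tissue comparison 192 (limma voom) to 200 members were called under the alternatives, and 181 to 194 with each arcuate library left out in turn (181 without any of 6 of them) and 195 to 198 with each other library left out. In each fit with 1 library left out every tested member was called, and the count moved with how many passed the filter. All genes called numbered 2697 of 15808 by limma voom, 2866 of 22439 without the filter and 3832 of 16331 without libraries of low score. With each library left out they numbered 2428 to 2791. The share of the list chosen again was 71.5% to 78% with each low plane library left out and 78.5% without libraries of low score. Where the rule was changed, the high plane list was made anew too. The share was then 74.5% and 69.5% with 0.1 and 2 CPM added to each mean, and 73.5% with TMM-scaled CPM. With an arcuate mean of 1 CPM or more and no upper edge it was 84%, which describes another list and not the members. No arcuate diet alternative called a member.

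In the pituitary the count of members called by diet was 0, but 1 by DESeq2, 5 with the library score in the fit, 3 without libraries of low score and 0 to 1 with each library left out (1 without A46). All genes called there numbered 81, against 258, 1297 and 833 under the first 3 of these, and 50 without TMM factors.

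In the testes the count was 5, but 8 by DESeq2, 3 by limma voom, 10 without TMM factors, 3 with the score, 0 with the log2 total and 0 without libraries of low score. All genes called there numbered 1057, against 1972, 621, 2336, 922, 2 and 0 in that order, and 609 without the filter. With each library left out the count ran from 3 to 13 members and from 158 to 4600 of all genes. It was 13 without B42, 11 without B31, 9 without B7, and 3 without A48, B32, B5, B49, B38, B21 or B2. The all-gene counts of these single fits are not given here, so the member counts are descriptions only. Members 167, 170 and 72 passed the threshold with each of the 18 libraries left out and failed it only with the log2 total and without libraries of low score. Members 51 and 34 lost it without 8 and 13 of the single libraries. Their directions did not change under any alternative. The causes were not tested.

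The settings without C6, C33 or libraries of low score were added after the data were seen. The summed arcuate mean on the low plane was 2091 CPM and 2259 CPM without C6 and C33. No paired analysis was possible because the library numbers in the labels are not shared between groups. Low counts limit what can be tested outside the arcuate nucleus.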
